A study of Danio rerio with 14 samples.

Results

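Vitellogenins are the large egg yolk precursor proteins of fish. In females, estrogen acting through its nuclear receptors switches the genes on in the liver, the proteins travel in the blood, and growing oocytes take them up through receptors of the low density lipoprotein family and cut them into yolk proteins. The heart is not their main site of expression, and levels in males are low. The 7 genes named vtg1 to vtg7 were taken by gene name from the 39289 features of the count table, and all 7 had a row. The family was chosen by values already seen in these libraries, among them the lower vtg4 counts of TMEM43-S358L against NTG hearts. Its levels, counts and fitted changes are therefore given as a description, with no p-value for any member. Counts of members called, or under an unadjusted p threshold, belong to that description.

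RNA was sequenced from 14 libraries of adult zebrafish hearts, labelled as strain TL1 (Tüpfel long fin in the methods of the study), each a pool of up to 7 ventricles according to the methods of the study. NTG hearts carried no transgene (replicate 2 and 3 at 5 months, replicate 4 at 21 months). TMEM43-WT hearts carried human wild-type TMEM43, a nuclear envelope protein gene, in replicates aged 5 (replicate 1), 18 (replicate 4), 20 (replicate 5) and 19 months (replicate 6). TMEM43-P111L hearts carried the p.P111L form, at 5 (replicate 2), 20 (replicate 3) and 19 months (replicate 4). TMEM43-S358L hearts carried the p.S358L form linked to arrhythmogenic cardiomyopathy, at 5 months in replicates 1, 2 and 3 and at 19 months in replicate 4. All transgenes were fused to eGFP, were inserted with the Tol2 system and were driven by a cardiomyocyte promoter (myl7). All fish were untreated. The ages are those of the labels. The text of the study describes the sequenced fish by the younger age alone, a conflict that could not be settled here and that touches every comparison of ages. The labels give no sex for any pool, and the part of the sex make-up of the pools in the values below was not tested. Since the number of source animals behind each replicate is not labelled, p-values measure the spread between these libraries only.

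The files place vtg3 alone on chromosome 11 of GRCz11, at 7359713 to 7380693 on the minus strand. The other 6 lie in a row on the minus strand of chromosome 22. In order of position they are vtg1 (24730965 to 24738207), vtg5 (24751101 to 24757790), vtg4 (24784016 to 24791505), vtg6 (24811396 to 24818085), vtg7 (24840237 to 24858051) and vtg2 (24869690 to 24880824). The same row holds a vitellogenin pseudogene, LOC100330641, between vtg4 and vtg6, and, beyond vtg2, a gene listed as si:dkey-4c23.3 whose gene number is that of vtg8. These 8 genes span 169 kb. All 7 members are annotated as protein-coding, with 3970 (vtg3) to 5002 (vtg2) exonic bases. In zebrafish, vtg1, vtg4, vtg5, vtg6 and vtg7 encode the closely related type I vitellogenins, vtg2 encodes a type II protein, and vtg3 encodes a short vitellogenin that lacks the phosvitin domain.

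Reads that matched several of these copies were shared out between them as fractions, so single rows of the cluster are uncertain. Every vtg4 value held a fraction of a read (14 of 14 libraries), as did 13 of 14 values of vtg1 and vtg6, 12 of vtg5, 10 of vtg2 and 5 of vtg7. All 14 values of vtg3, the member on its own chromosome, were whole. When vtg1, vtg4, vtg5, vtg6, vtg7 and LOC100330641 were added up, the sum was whole to within 0.03 reads in 12 of 14 libraries, all except NTG replicate 4 and TMEM43-WT replicate 6. Fractions of these 6 rows were therefore exchanged almost entirely among themselves, and their total is firmer than any of their parts. In NTG replicate 3, for example, vtg1 held 0.2 reads, vtg5 0.2, vtg6 2.2, vtg4 18.2 and the pseudogene 0.2.

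Vitellogenin reads were rare in every heart library. Libraries held 20621770 to 32418475 assigned reads, of which the 7 genes together took 30.2 to 1026 reads, at most 0.00459% of a library. Levels are given in CPM, the count scaled to a library total of 1000000 reads, with totals adjusted by the trimmed mean of M-values (TMM). On this scale the family total was 8.71, 1.83 and 12.2 CPM in NTG replicates 2, 3 and 4. It was 18.8, 9.68, 47.2 and 15.5 CPM in TMEM43-WT replicates 1, 4, 5 and 6. TMEM43-P111L replicates 2, 3 and 4 held 6.94, 18.5 and 16.1 CPM. All 4 TMEM43-S358L libraries were low, at 2.49, 5.14, 1.36 and 2.34 CPM in replicates 1 to 4. The means were 22.8 ± 16.7 (SD, n = 4) in TMEM43-WT, 13.9 ± 6.11 (n = 3) in TMEM43-P111L, 7.57 ± 5.26 (n = 3) in NTG and 2.83 ± 1.62 CPM (n = 4) in TMEM43-S358L. The TMEM43-S358L libraries lay below every TMEM43-WT and every TMEM43-P111L library, and overlapped NTG through its replicate 3. Neighbours higher in that order overlapped as well: TMEM43-WT with TMEM43-P111L, and both with NTG. In bulk tissue, fewer cells of a type and less RNA per cell cannot be told apart.

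vtg4 had the highest mean level of the family, although its share of the vitellogenin reads ran from 14.4 to 81.2%. On the CPM scale divided by kilobases of exon, its mean over the 14 libraries was 1.32 ± 1.15 (SD), against 0.730 ± 1.65 for vtg1, 0.204 ± 0.166 for vtg2, 0.174 ± 0.154 for vtg6, 0.150 ± 0.265 for vtg5, 0.118 ± 0.0908 for vtg3 and 0.0620 ± 0.135 for vtg7. The spread over libraries exceeded the gaps between neighbours in this order. By median the order changes, since vtg1 falls from 0.730 to 0.0694: its mean rests on few libraries. vtg4 was the highest member in 9 of 14 libraries, vtg1 in 4 and vtg3 in 1 (TMEM43-S358L replicate 4).

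**Figure D1:**
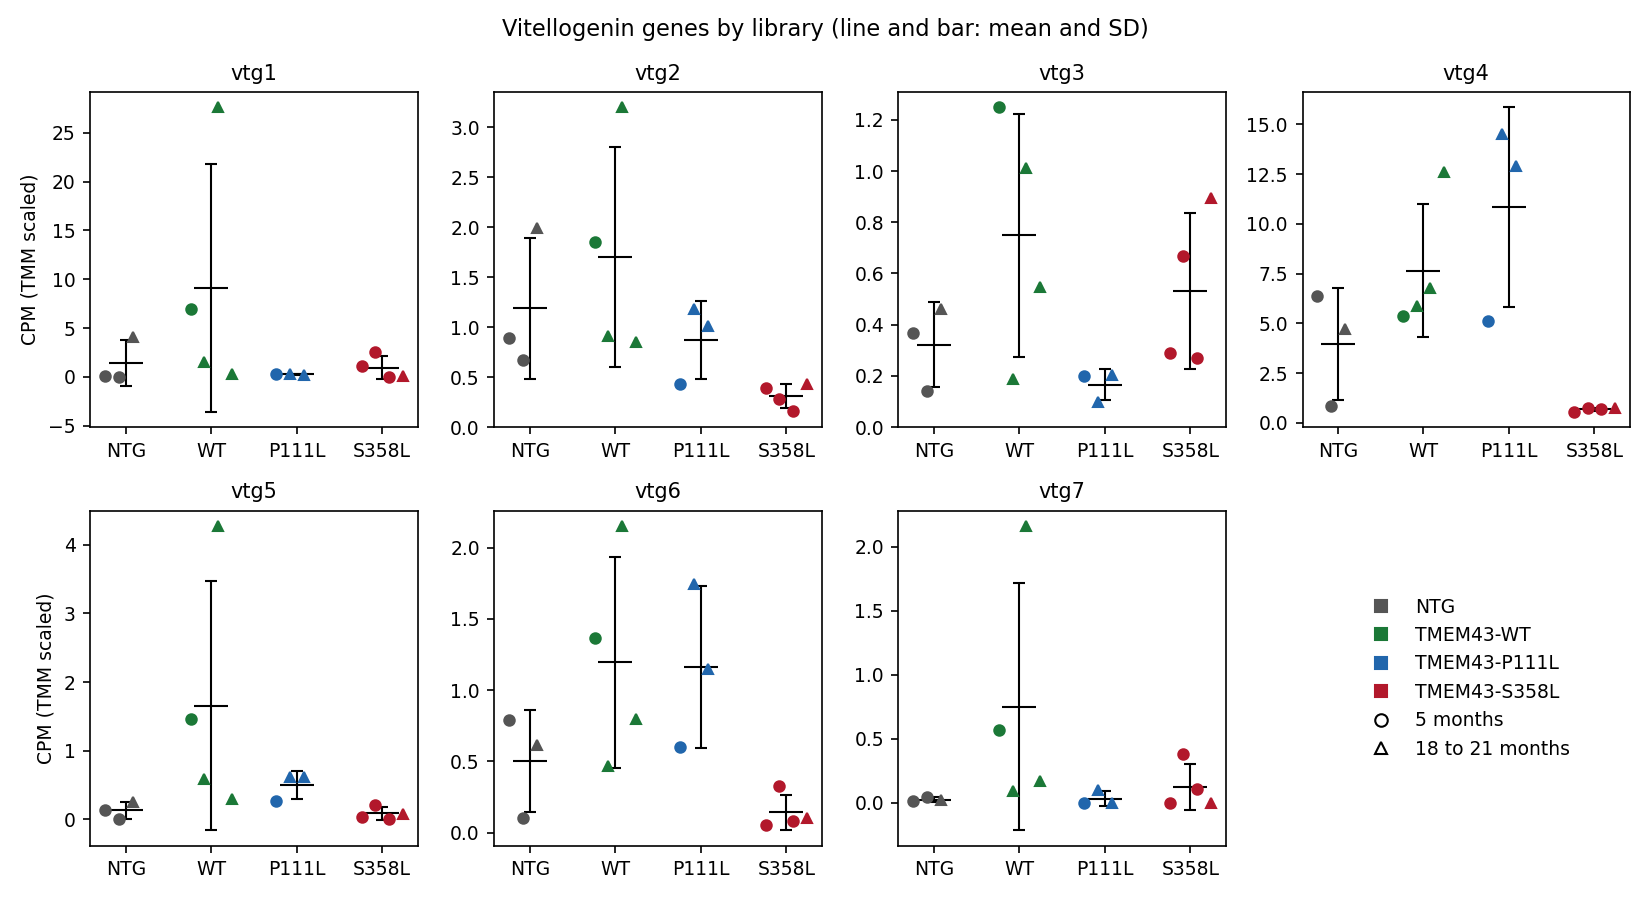
Level of each vitellogenin gene in TMM-scaled CPM (vertical axes, which differ between panels and show standard deviations that reach below 0 in some) in the 4 genotypes (horizontal axes). Each symbol is 1 library, circles at 5 months and triangles at 18 to 21 months; lines and bars are the mean and SD. In the vtg4 panel the 4 TMEM43-S358L libraries sit between 0.549 and 0.738 CPM, below every other library but only narrowly below NTG replicate 3. The vtg1, vtg5 and vtg7 panels are topped by the same TMEM43-WT library, replicate 5.

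vtg4 was lowest in the 4 TMEM43-S358L libraries, but NTG replicate 3 lay close to them. By reads, NTG replicate 3 held 18.2, inside the range of 13.33 to 19.83 in TMEM43-S358L. NTG replicates 2, 3 and 4 held 6.36, 0.847 and 4.70 CPM, and TMEM43-S358L replicates 1 to 4 held 0.549, 0.738, 0.699 and 0.727 CPM. TMEM43-WT replicates 1, 4, 5 and 6 held 5.38, 5.85, 6.80 and 12.6 CPM. TMEM43-P111L replicates 2, 3 and 4 held 5.12, 14.5 and 12.9 CPM. Thus the TMEM43-S358L libraries were the 4 lowest of 14, with an SD of only 0.0877 CPM around a mean of 0.678, while NTG replicate 3 came next and the other 2 NTG libraries lay far above it. Its closest counterpart was vtg6, with 0.794, 0.102 and 0.614 CPM in NTG, 1.36, 0.466, 2.15 and 0.796 in TMEM43-WT, 0.604, 1.74 and 1.15 in TMEM43-P111L hearts, and 0.0548, 0.329, 0.0821 and 0.104 in TMEM43-S358L. vtg6 also ran low in TMEM43-S358L, below all TMEM43-WT and TMEM43-P111L libraries, but NTG replicate 3 fell inside the TMEM43-S358L range. vtg6 held fewer reads than vtg4 in 14 of 14 libraries, at 0.0632 to 0.445 of the vtg4 count.

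vtg1 varied most. NTG replicates 2, 3 and 4 held 0.143, 0.00931 and 4.12 CPM. TMEM43-WT replicates 1, 4, 5 and 6 held 6.94, 1.58, 27.6 and 0.261 CPM. The 3 TMEM43-P111L libraries were close together, at 0.320, 0.295 and 0.185 CPM. TMEM43-S358L replicates 1 to 4 held 1.17, 2.53, 0.0260 and 0.104 CPM. Genotypes overlapped throughout, and no TMEM43-P111L library reached 1 CPM. The highest library, TMEM43-WT replicate 5, stood at 89.8 times the median of all 14.

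vtg5 had a lower mean than vtg1 but exceeded it in TMEM43-P111L replicates 3 and 4 and TMEM43-WT replicate 6. Its values were 0.135, 0.00931 and 0.248 CPM in NTG, 1.46, 0.587, 4.28 and 0.297 in TMEM43-WT, 0.267, 0.623 and 0.618 in TMEM43-P111L hearts, and 0.0412, 0.217, 0.0112 and 0.0779 in TMEM43-S358L. All TMEM43-WT and all TMEM43-P111L libraries were above all NTG libraries, the nearest pair being TMEM43-P111L replicate 2 at 0.267 and NTG replicate 4 at 0.248 CPM. vtg7, whose row is the lowest of the family, held 10, 2, 47 and 4.17 reads in TMEM43-WT replicates 1, 4, 5 and 6, and 10.3 reads in TMEM43-S358L replicate 2. In every other library it held under 3 reads, and in 4 of them none (TMEM43-P111L replicates 2 and 4, TMEM43-S358L replicates 1 and 4), where a count of 0 still allows 0.119, 0.0866, 0.124 and 0.117 CPM. At this depth differences in vtg7 between NTG, TMEM43-P111L and TMEM43-S358L were not detectable.

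vtg2, the type II gene, was present in every library. It held 0.894, 0.675 and 1.99 CPM in NTG, 1.85, 0.916, 3.20 and 0.847 in TMEM43-WT, 0.437, 1.18 and 1.01 in TMEM43-P111L hearts, and 0.391, 0.279, 0.157 and 0.428 in TMEM43-S358L. The TMEM43-S358L libraries were again below all others, narrowly so against TMEM43-P111L replicate 2. vtg3, whose reads are not shared with other members, showed no such pattern. It held 0.367, 0.140 and 0.461 CPM in NTG, 1.25, 0.188, 1.01 and 0.545 in TMEM43-WT, 0.198, 0.0984 and 0.202 in TMEM43-P111L hearts, and 0.288, 0.670, 0.269 and 0.896 in TMEM43-S358L. Here TMEM43-S358L overlapped NTG and TMEM43-WT, and lay above all 3 TMEM43-P111L libraries.

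The make-up of the vitellogenin reads differed between libraries of the same genotype. vtg4 took 81.2% of them in TMEM43-WT replicate 6 (95% Wilson interval 76.8 to 84.7) but 14.4% in TMEM43-WT replicate 5 (12.4 to 16.7), where vtg1 took 58.5% (55.4 to 61.5). vtg1 also led in TMEM43-WT replicate 1 with 36.9% (31.8 to 42.2), in TMEM43-S358L replicate 1 with 46.8% and in TMEM43-S358L replicate 2 with 49.1% (41.1 to 57.5). In contrast, TMEM43-P111L libraries were uniform, with vtg4 at 73.7, 78.2 and 80.3% and vtg1 at 4.61, 1.59 and 1.15%. NTG libraries ranged from 1.64% vtg1 in replicate 2 to 33.9% in replicate 4 (28.6 to 39.4). vtg3 reached 38.3% in TMEM43-S358L replicate 4 (27.1 to 51.0), a library with 60 vitellogenin reads, and stayed between 0.531 and 19.8% elsewhere. These intervals cover counting error only and take fractional reads to the nearest whole read.

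**Figure D2:**
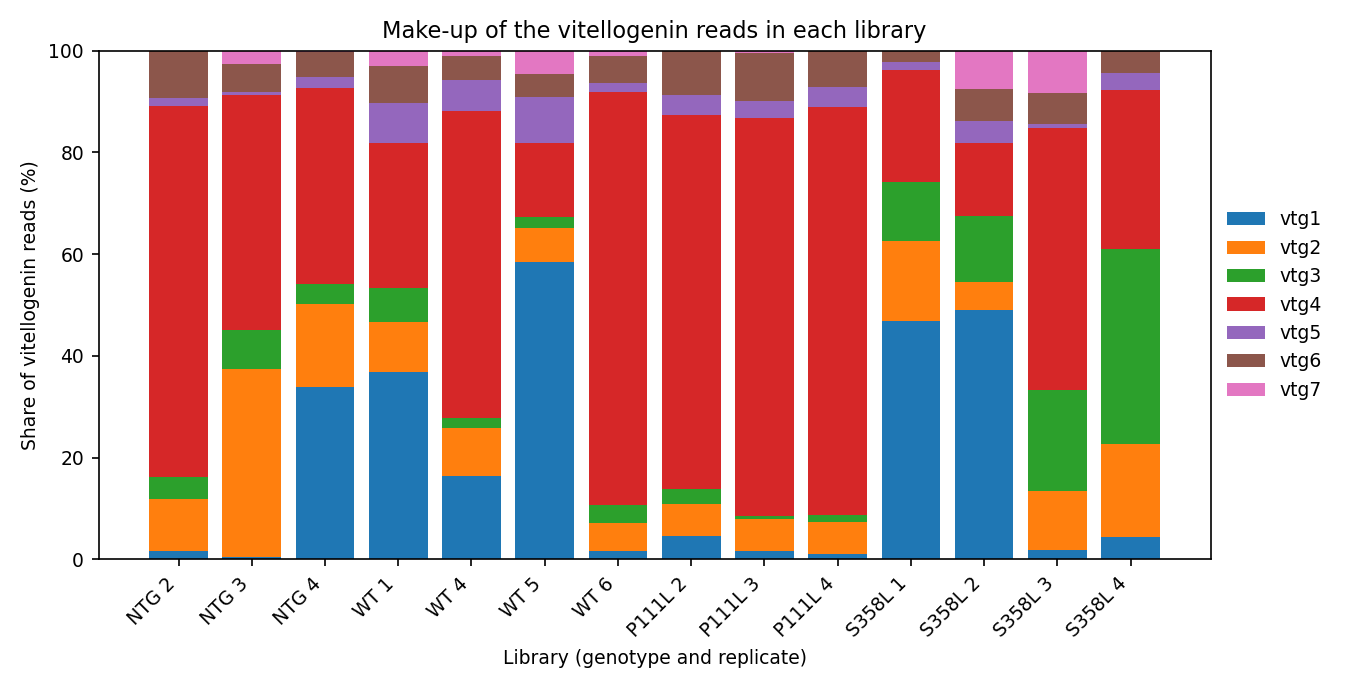
Share of the vitellogenin reads of each library (vertical axis, percent) taken by each of the 7 genes (stacked colours), with libraries ordered by genotype along the horizontal axis. vtg4 fills most of the TMEM43-P111L bars (73.7 to 80.3%), while vtg1 leads in TMEM43-WT replicates 1 and 5 and TMEM43-S358L replicates 1 and 2.

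Across the 14 libraries some members ran together and others did not. On the log2(CPM + 1) scale, vtg4 ran with vtg6 (Pearson r = 0.83, Spearman rho = 0.88), and vtg1 ran with vtg7 (r = 0.86, rho = 0.44) and vtg5 (r = 0.83, rho = 0.65). vtg5 ran as closely with vtg6 (r = 0.81, rho = 0.90, the highest rho of all pairs) and with vtg2 (r = 0.82, rho = 0.77), and by rank with vtg4 (r = 0.47, rho = 0.77). vtg2 also ran with vtg6 (r = 0.80, rho = 0.83) and vtg1 (r = 0.76, rho = 0.53). The highest r of all pairs was that of vtg5 and vtg7 (r = 0.89, rho = 0.42). Pairs with vtg7 rest on few libraries, since it reached 3 reads in only 4 of 14. vtg1 and vtg4 showed little relation (r = 0.12, rho = 0.15), as did vtg3 and vtg4 (r = -0.09, rho = -0.16). All points share the library depth, and pairs among vtg1, vtg4, vtg5, vtg6 and vtg7 also share split reads. For vtg2 this is less clear, since 10 of its 14 values held a fraction. It held 47.6 and 20.2 reads in NTG replicate 4 and TMEM43-WT replicate 6, where the sum of the other rows was not whole. vtg1 exceeded vtg4 in 4 libraries, by 4.06 times in TMEM43-WT replicate 5, and was 0.0110 of it in NTG replicate 3.

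**Figure D3:**
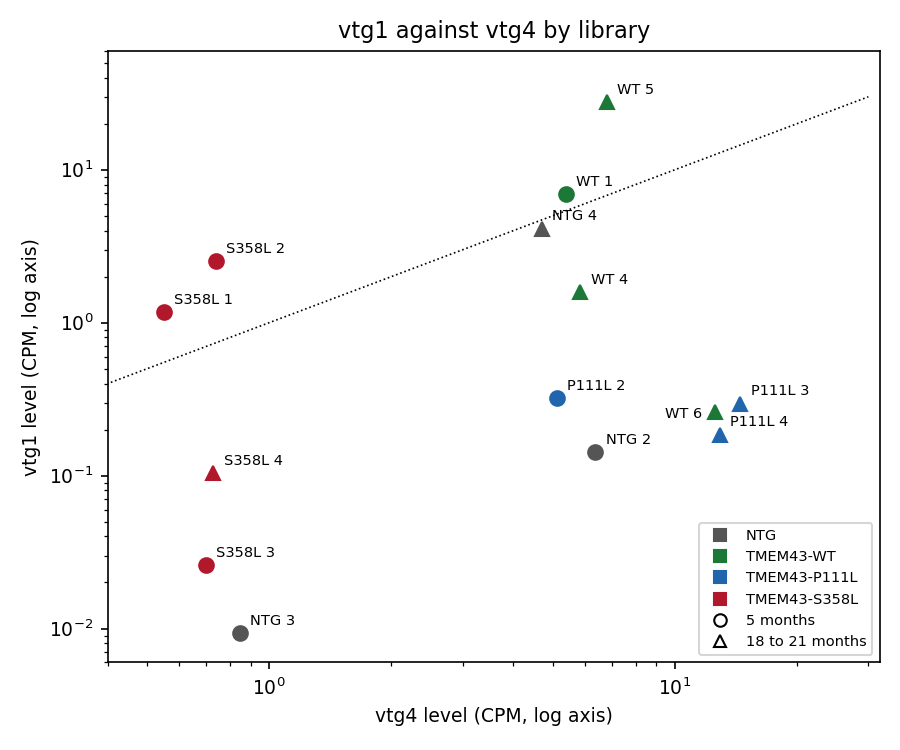
vtg1 level (vertical log axis, CPM) against vtg4 level (horizontal log axis, CPM) in the 14 libraries; colours give genotype, shapes give age and the dotted line marks equal levels. The 4 TMEM43-S358L libraries share nearly 1 vtg4 level (0.549 to 0.738 CPM) while their vtg1 levels run from 0.0260 to 2.53 CPM.

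The design asks how each TMEM43 line differs from NTG hearts. Genes were tested with edgeR's quasi-likelihood test over all 14 libraries, and called at a Benjamini-Hochberg adjusted p under 0.05 a log2 change of 0.05 or more in either direction, the limits used by the study. Of the 7 members, 6 passed the filter on low counts and vtg7 did not. The filter drew on all genotypes: with only the 2 groups compared, 6 members passed in TMEM43-WT, 3 in TMEM43-P111L (vtg2, vtg4 and vtg6) and 4 in TMEM43-S358L (vtg1 to vtg4). All 3 comparisons share the NTG libraries. Between all TMEM43-WT and all NTG libraries, 1 of 6 members was called higher, vtg5, beside 4.09% of all tested genes called higher and 8.34% called in either direction. Its fitted log2 fold change was 3.60 ± 1.05 (SE). vtg5 passed the filter through its TMEM43-WT libraries, where it is high: it held 2.95, 0.2 and 5.93 reads in NTG, and in the comparison of ages without the TMEM43-WT libraries it was not tested. The filter therefore favoured its place among members higher in TMEM43-WT, and nothing is read from that count. The other 5 had positive fitted values with wide errors, from 0.51 ± 0.56 for vtg2 and 0.95 ± 0.52 for vtg4 to 1.19 ± 0.69 for vtg3, 1.25 ± 0.72 for vtg6 and 2.67 ± 1.63 for vtg1. At an unadjusted p under 0.05 there was 1 of the 6. The median over the 6 was 1.22, beside -0.01 over all tested genes. By separation of the libraries, 1 of 6 members, again vtg5, had all TMEM43-WT values above all NTG values, as did 10.6% of tested genes; the same limit holds for this count.

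The vtg5 call was fragile. It was lost in 10 of 20 alternatives, and a filter of 1 CPM removed the gene. Leaving out TMEM43-P111L replicate 3 or 4 or TMEM43-S358L replicate 4 ended it with the value at 3.60. It also ended without any 1 NTG library, without TMEM43-WT replicate 1 and without TMEM43-WT replicate 5, whose removal lowered the fitted value to 2.5 ± 0.99. Without NTG replicates 2, 3 and 4 in turn it was 3.63, 3.05 and 4.48, and without TMEM43-WT replicate 1 it was 3.66. DESeq2 called 2 of 7 members higher (vtg5 and vtg7), beside 6.12% of its tested genes. vtg7 held 0.25 to 1 reads in NTG and 2 to 47 in TMEM43-WT. Both genes thus entered the test largely through libraries where they are high, and nothing is read from this count.

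In the comparison of TMEM43-P111L with NTG hearts, edgeR called 0 of 6 members, beside 7.59% of tested genes called in either direction. At an unadjusted p under 0.05 there was 1, and DESeq2 called 0 of 7. Fitted log2 values pointed both ways. vtg4 (1.45 ± 0.55), vtg5 (1.90 ± 1.08) and vtg6 (1.19 ± 0.75) were positive, and vtg1 (-2.45 ± 1.90), vtg3 (-0.91 ± 0.78) and vtg2 (-0.45 ± 0.60) were negative. Their median of 0.37 lay beside 0.00 for all tested genes. The negative vtg1 value rests on NTG replicate 4, without which it was 1.81. In 1 of 6 members, vtg5, all TMEM43-P111L libraries were above all NTG libraries, as in 12.7% of tested genes.

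The lower vtg4 level of TMEM43-S358L against NTG hearts was among the values by which the family was chosen. Its call and its refits below therefore only describe it. Between these groups 1 of 6 members was called lower, vtg4, beside 3.48% of tested genes called lower and 6.15% called in either direction. Its fitted log2 fold change was -2.53 ± 0.55, and its mean level was 0.171 times that of NTG. Since the family was chosen with this contrast known, nothing is read from the count. vtg2 (-1.84 ± 0.59) and vtg6 (-1.72 ± 0.78) had negative values that were not called, vtg1 (-0.55 ± 1.57) and vtg5 (-0.54 ± 1.16) were near their errors, and vtg3 was positive at 0.71 ± 0.69. The median was -1.14, beside 0.00 for all tested genes. At an unadjusted p under 0.05 there were 3 of 6, and nothing is read from that count either. DESeq2 called 2 of 7 lower (vtg4 and vtg2), beside 5.35% of its tested genes. The vtg4 call was kept in 20 of 22 alternatives. It was lost without NTG replicate 2, where the fitted value was -1.99 ± 0.56, and with the replicate number as a block (-2.08 ± 0.66). Without NTG replicate 4 the vtg1 value turned to 3.71.

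Separation of the libraries was counted as well. Of the 6 tested members, 2 (vtg2 and vtg4) had all TMEM43-S358L libraries below all NTG libraries, as did 10.1% of tested genes. For vtg4 the gap to NTG replicate 3 was narrow. Against TMEM43-WT, 4 of 6 (vtg2, vtg4, vtg5 and vtg6) had all TMEM43-S358L libraries lower, beside 4.94% of tested genes. The same 4 were lower than in all TMEM43-P111L libraries, beside 4.83% of tested genes, and 1 (vtg3) was higher than in all TMEM43-P111L libraries, beside 4.96%. Mean vtg4 in TMEM43-S358L was 0.0886 times that in TMEM43-WT and 0.0626 times that in TMEM43-P111L. These counts share the TMEM43-S358L libraries and, within the cluster, split reads, so they are not separate observations. The family was also chosen with its low vtg4 counts in TMEM43-S358L known. Moreover, vtg5 and vtg6 did not pass the filter with TMEM43-S358L and NTG alone, and passed it through lines where they are higher. Nothing is therefore read from these counts.

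**Figure D4:**
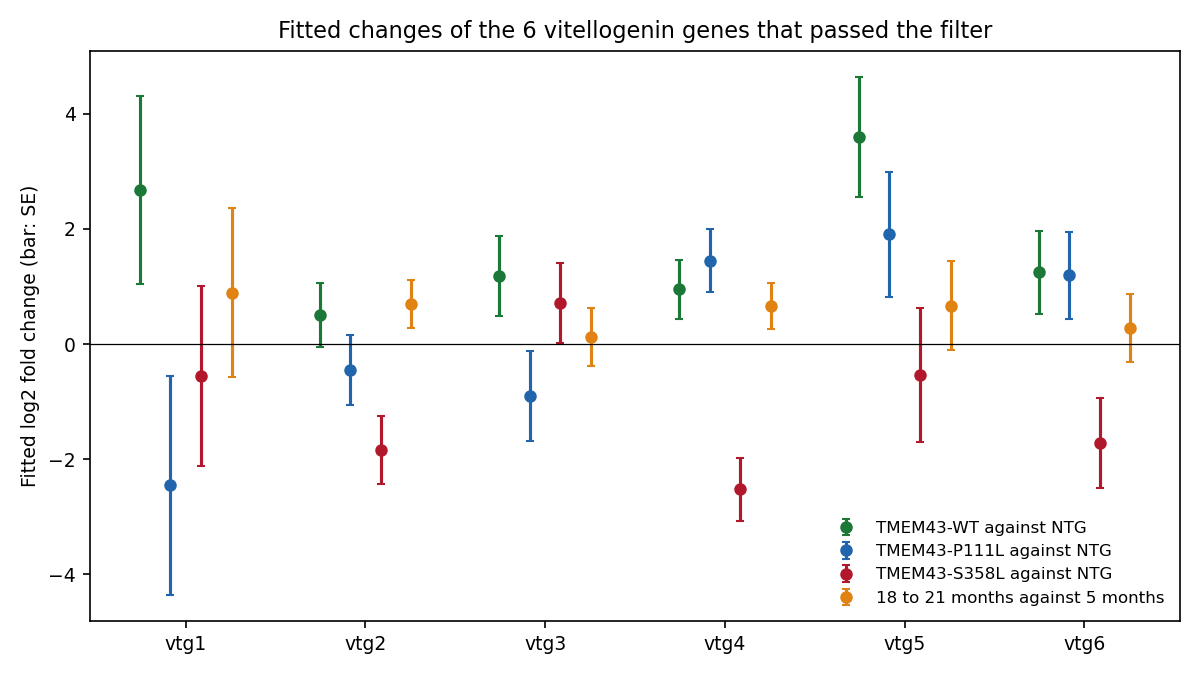
Fitted log2 fold change (vertical axis) with its standard error (bars) for the 6 tested members (horizontal axis) in the 3 comparisons with NTG and in the comparison of ages. vtg4 in TMEM43-S358L lies at -2.53 and vtg5 in TMEM43-WT at 3.60, the values called by edgeR; bars of vtg1 are the widest, with standard errors of 1.47 to 1.90.

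Age was unevenly spread over genotypes, since 3 of 4 TMEM43-S358L libraries but 1 of 4 TMEM43-WT libraries came from fish of 5 months. The family total averaged 17.4 ± 14.2 CPM (SD, n = 7) at 18 to 21 months and 6.47 ± 6.10 CPM (n = 7) at 5 months, with overlap. With genotype in the model, edgeR called 0 of 6 members between the ages, beside 0.969% of tested genes. At an unadjusted p under 0.05 there were also 0, and DESeq2 called 0 of 7. All 6 fitted log2 values were positive, from 0.12 ± 0.50 for vtg3 to 0.89 ± 1.47 for vtg1, with 0.67 ± 0.40 for vtg4. Within NTG, vtg4 was 6.36 and 0.847 CPM in the 2 libraries of 5 months and 4.70 CPM in the 1 of 21 months. Among libraries of 5 months alone, the 3 TMEM43-S358L values of vtg4 (0.549 to 0.738 CPM) were below NTG (0.847 and 6.36), TMEM43-P111L (5.12) and TMEM43-WT (5.38). The gap to the lower NTG value was narrow. Among the older libraries, the single TMEM43-S358L value of 0.727 CPM stood below the 6 others, which ran from 4.70 to 14.5 CPM. Since the family was chosen with low vtg4 in TMEM43-S358L known, these values by age only describe it. The part of age in them was not tested. With age as a covariate the vtg5 call in TMEM43-WT was lost (3.42 ± 1.07).

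Genes around the vitellogenin pathway were examined as lists written from textbook knowledge, but chosen with earlier results of these data known. Adjusted p-values of list genes, here and below, are therefore a description. Over all tested genes, 8.34% were called in either direction in TMEM43-WT, 7.59% in TMEM43-P111L, 6.15% in TMEM43-S358L and 0.969% between the ages. Of 9 estrogen receptors and estrogen-responsive genes, 4 were tested. edgeR called 0 of them in the TMEM43-WT comparison and 0 in that of TMEM43-P111L (2 each at an unadjusted p under 0.05, and esr1 in both by DESeq2), and 1 lower in TMEM43-S358L. That gene was esr1, the estrogen receptor alpha gene that drives vitellogenin transcription in fish liver. It held 9.53, 7.77 and 5.86 CPM in NTG replicates 2, 3 and 4, and 1.98, 1.75, 2.91 and 2.06 CPM in TMEM43-S358L replicates 1 to 4. All TMEM43-S358L values were below all NTG values, as in 10.1% of tested genes. The fitted log2 fold change was -1.83 ± 0.31 (edgeR adjusted p = 0.00378). TMEM43-WT replicates 1, 4, 5 and 6 held 4.78, 4.32, 3.13 and 3.15 CPM (-1.01 ± 0.31, edgeR adjusted p = 0.0524). TMEM43-P111L replicates 2, 3 and 4 held 5.08, 2.80 and 2.92 CPM (-1.10 ± 0.33, edgeR adjusted p = 0.0538). Both groups also lay below all NTG libraries, although neither passed the threshold. All libraries were below NTG in 1946 of 17437 tested genes in TMEM43-WT and in 2509 in TMEM43-P111L. Separation from NTG in either direction was seen in 21.8% of tested genes in TMEM43-WT and 27.1% in TMEM43-P111L.

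No other gene of that list was called by edgeR. esr2b, an estrogen receptor beta gene, had fitted values of -0.69 ± 0.28 in TMEM43-S358L (edgeR adjusted p = 0.154), -0.80 ± 0.30 in TMEM43-P111L (0.117) and -0.44 ± 0.28 in TMEM43-WT (0.350). nots, which encodes nothepsin, an aspartic protease of the female liver of zebrafish, held 0.0897 to 0.853 CPM, with a mean of 0.667 ± 0.222 in TMEM43-WT (n = 4) and 0.191 ± 0.0562 in NTG (n = 3). It was not called in any comparison. In TMEM43-S358L the other 2 tested genes went the opposite way to esr1 and esr2b. The fitted value was 0.82 ± 0.72 for nots and 0.61 ± 0.72 for greb1, an estrogen-responsive gene at 0.357 to 3.94 CPM. Neither was called. The median fitted value of the 4 tested genes in TMEM43-S358L was -0.04, beside 0.00 for all tested genes. Between the ages 0 of 4 were called (1 at an unadjusted p under 0.05, 0 by DESeq2).

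Of 11 genes for uptake, processing and related lipoproteins, 6 were tested and 1 was called higher in each TMEM43 line. This was vldlr, the very low density lipoprotein receptor, a relative of the vitellogenin receptor of oocytes that is also used by muscle. It held 27.0, 28.5 and 15.6 CPM in NTG and 37.0 to 52.2 CPM in TMEM43-S358L (log2 fold change 0.95 ± 0.21, edgeR adjusted p = 0.0156). TMEM43-WT libraries held 39.0 to 50.1 CPM (0.87 ± 0.21, edgeR adjusted p = 0.0197), and TMEM43-P111L libraries 36.8 to 47.0 CPM (0.79 ± 0.22, edgeR adjusted p = 0.0418). Every transgenic library lay above every NTG library. Within single lines such separation was common. All libraries were above NTG in 10.6% of tested genes in TMEM43-WT and 12.7% in TMEM43-P111L. In TMEM43-S358L all libraries were above NTG in 1590 of 17437 tested genes, and 19.2% lay apart from NTG in either direction. The share of tested genes above NTG in all 3 lines together was not counted. vldlr was thus higher in all 3 lines, whereas vtg4 was low in 1. Without NTG replicate 4 it was no longer called in TMEM43-WT (0.64, edgeR adjusted p = 0.0599) or TMEM43-P111L (0.56, edgeR adjusted p = 0.116), and the TMEM43-WT call was also lost without its replicate 5 (0.79, edgeR adjusted p = 0.0590). In TMEM43-P111L the call was kept in 10 of 22 alternatives. The proteases ctsd and ctsba, which cut vitellogenin in oocytes and serve lysosomes elsewhere, held 97.3 to 229 and 77.8 to 182 CPM and were not called. Between the ages 0 of 6 were called (2 at an unadjusted p under 0.05, and 1, lrp1ab, by DESeq2).

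Cell type markers were read beside these values. The libraries were dominated by heart RNA: 12 ventricular cardiomyocyte markers summed to 76037 to 105839 CPM. Of 44 hepatocyte markers found, 19 had a median of 0 reads and 35 a mean under 1 CPM. fabp10a, a defining marker of zebrafish hepatocytes, reached at most 2.08 CPM and was at 0 in TMEM43-S358L replicates 1 and 3. By contrast rbp4 held 762 to 1978 CPM and tfa 14.3 to 162 CPM, so that the summed list (815 to 2259 CPM) is mainly rbp4. Its sum ran from 1272 to 1952 CPM in NTG, 1082 to 1594 in TMEM43-WT, 1062 to 2259 in TMEM43-P111L and 815 to 1662 in TMEM43-S358L, with overlap among all 4.

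In TMEM43-S358L hearts 2 of 13 tested hepatocyte markers were called lower, beside 3.48% of all tested genes, and none higher. The list median was -1.54, beside 0.00 for all tested genes. hpda, an enzyme of tyrosine breakdown, held 0 to 0.0448 CPM in TMEM43-S358L and 0.140 to 0.550 CPM in NTG (log2 fold change -3.64 ± 0.99, edgeR adjusted p = 0.0402), values of a few reads whose call was kept in 12 of 19 alternatives. tfa, the transferrin gene, had a fitted value of -1.33 ± 0.43 (edgeR adjusted p = 0.0827). In TMEM43-WT and TMEM43-P111L 0 of 13 were called (2 and 3 at an unadjusted p under 0.05; DESeq2 called 1 and 0). Markers named for being lower in TMEM43-S358L share the direction of vtg4 by that choice, and nothing is read from it. Markers differed in TMEM43-P111L, the line with the highest mean vtg4 (10.8 CPM). There hpda was also low, at 0 to 0.0577 CPM (log2 fold change -2.94, not called). The fitted tfa value was positive there, at 1.04 (not called), with 51.8 to 162 CPM. The part of these markers in the vtg4 result was not tested.

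Gonad markers were sparse. Of 26 oocyte markers, 16 had a median of 0 reads and 25 a mean under 1 CPM, and their sum was 2.19 to 5.61 CPM in NTG, 3.59 to 5.47 in TMEM43-WT, 3.12 to 7.77 in TMEM43-P111L and 1.33 to 3.01 in TMEM43-S358L. The member with the highest mean was buc, which organises the Balbiani body of oocytes, at 4.17, 0.978 and 2.6 CPM in NTG and 0.165, 0.633, 1.52 and 1.21 CPM in TMEM43-S358L (-1.55 ± 0.57, edgeR adjusted p = 0.116). edgeR and DESeq2 called 0 oocyte markers in every comparison, with 1 at an unadjusted p under 0.05 in TMEM43-S358L and 0 in the others. Of 7 ovarian somatic markers 1 was tested, gsdf, a gonadal growth factor gene that was plentiful here (94.9 to 197 CPM) and was called in 0 comparisons (0 at an unadjusted p under 0.05); DESeq2, which tested more genes, called foxl2b, a granulosa cell factor, higher in TMEM43-WT and TMEM43-P111L at levels of up to 0.378 CPM. Of 12 testis markers, all had means under 1 CPM, and edgeR called 0 of the 2 tested (1 at an unadjusted p under 0.05 in TMEM43-WT and 1 between the ages; DESeq2 called amh lower at 18 to 21 months).

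Markers of other tissues were compared as well. Exocrine pancreas markers summed to 248, 34.9 and 27.9 CPM in NTG replicates 2, 3 and 4, and to 10.7 to 24.3 CPM in TMEM43-S358L, 6.01 to 16.5 CPM in TMEM43-WT and 5.41 to 25.5 CPM in TMEM43-P111L. Of 6 tested genes 1 was called lower in TMEM43-WT (ela2l), 2 in TMEM43-P111L (ela2l and cpa5) and 1 in TMEM43-S358L, and 0 between the ages (1 at an unadjusted p under 0.05; DESeq2 called ctrb1 lower). Of all tested genes, 8.34%, 7.59% and 6.15% were called in these lines in either direction, and 0.969% between the ages. With so few genes, nothing is read from these counts. Each line was below NTG in the sum, and the part of such RNA in the vitellogenin values was not tested. In TMEM43-S358L the lower sum did not extend to every marker. Mean cpa5 was higher, at 11.3 ± 5.19 CPM (SD) in TMEM43-S358L against 7.28 ± 3.08 CPM in NTG, with overlap. Its fitted log2 fold change was 0.64 ± 0.38 and was not called. By contrast, ctrb1 ran from 0.273 to 6.63 CPM in TMEM43-S358L, below every NTG library. The median fitted value of the 6 tested genes was -0.64. The chymotrypsin gene ctrb1 made up most of the NTG replicate 2 value (231 CPM) and was called lower in TMEM43-S358L (-4.96 ± 1.30, edgeR adjusted p = 0.0460), but without that library the value was -2.88 (edgeR adjusted p = 0.189). Without the same library the fitted vtg4 value was -1.99.

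The other lists are given by counts, to be read beside the same shares of all tested genes. Of 9 tested fast skeletal muscle genes, 3 were called lower in TMEM43-WT, 2 in TMEM43-P111L, 1 in TMEM43-S358L and 1 at 18 to 21 months; ckmb, a muscle creatine kinase gene, was called lower in all 3 lines. Of 12 ventricular cardiomyocyte genes 1 was called, tnni1b higher in TMEM43-P111L, and 0 in TMEM43-WT, TMEM43-S358L and between the ages (3, 2 and 1 at an unadjusted p under 0.05; 2, 1 and 1 by DESeq2). Of 2 tested atrial genes, myh6, an atrial myosin heavy chain, was called higher in both mutant lines, with 0 called in TMEM43-WT (1 at an unadjusted p under 0.05; DESeq2 called myh6 higher and myl4 lower). Of 7 tested skin genes 1, krt5, was called lower at 18 to 21 months and 0 in the lines (1, 1 and 0 at an unadjusted p under 0.05, 0 by DESeq2). edgeR called none of 7 erythrocyte, 7 macrophage or 1 tested intestinal gene in any comparison, although 5 macrophage genes in TMEM43-WT and 2 in TMEM43-P111L had an unadjusted p under 0.05, as did 2 erythrocyte genes between the ages, and DESeq2 called 2 macrophage genes (marco and mpeg1.1) higher in TMEM43-WT. The vtg8 row held 0 to 0.662 CPM and did not pass the filter.

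**Figure D5:**
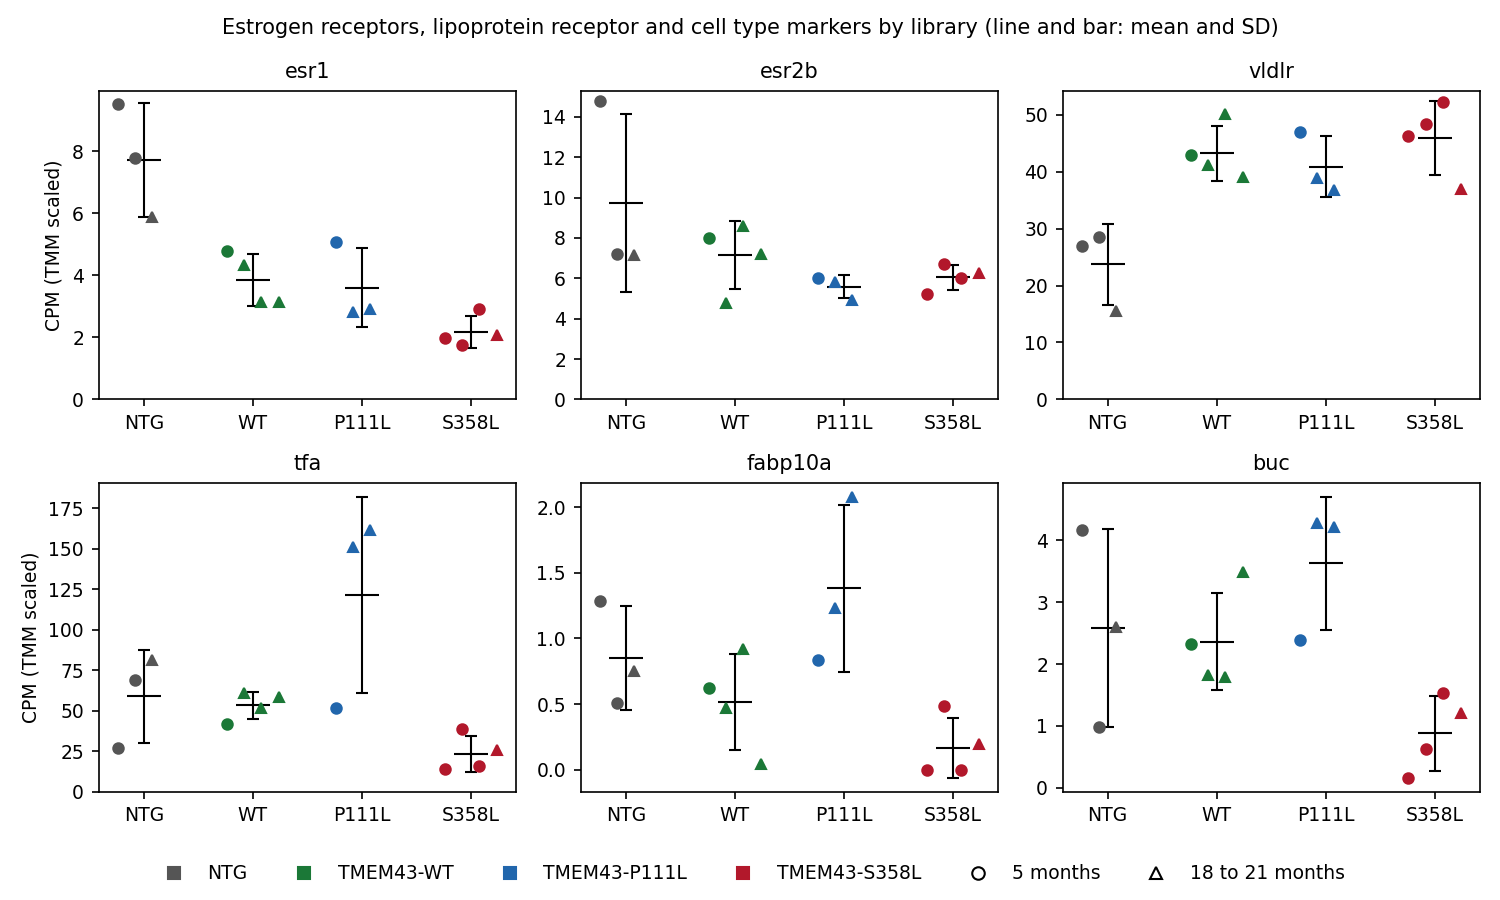
TMM-scaled CPM (vertical axes) of esr1, esr2b, vldlr, tfa, fabp10a and buc in the 4 genotypes (horizontal axes); each symbol is 1 library, circles at 5 months and triangles at 18 to 21 months, with mean and SD. esr1 is highest in NTG (5.86 to 9.53 CPM) and lowest on average in TMEM43-S358L (1.75 to 2.91 CPM), vldlr is lowest in NTG (15.6 to 28.5 CPM), and fabp10a stays at or under 2.08 CPM.

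The genes whose levels ran most like the family total were named by a rule: the 10 of 11193 symbol-bearing genes (mean of 1 CPM or more) with the highest Pearson correlation of log2(CPM + 1) over the 14 libraries. They were fez1 (r = 0.83, rho = 0.82), metap1 (0.82, 0.85), imp3 (0.82, 0.78), capn1b (0.82, 0.82), prrx1a (0.81, 0.86), fam21c (0.80, 0.75), eif2ak4 (0.80, 0.78), ccdc124 (0.79, 0.86), colec10 (0.79, 0.87) and il1b (0.78, 0.79). Leaving out TMEM43-WT replicates 1 and 5, the libraries farthest from the median total, r was between 0.73 (ccdc124) and 0.92 (fez1). With 14 points and so many genes, correlations of this size are a description only, and all points share depth and genotype.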

How the data were processed

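RNA-seq had been done on 14 zebrafish heart libraries. According to the methods and the processing notes of the submitters, TruSeq Stranded mRNA libraries were read as single ends of 75 bases, trimmed with Cutadapt 2.5, aligned to GRCz11 with STAR 2.7.2b and counted with featureCounts 1.6.4. The authors deposited estimated counts per gene, 1 column per library, in which reads matching several genes appear as fractions; the exact multimapping and strand settings are not given in the sources used here. The annotation columns (position, exon length, symbol), as deposited, carry no measurement. The members and all lists were chosen with earlier results of these data known.

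Counts were rounded, filtered by expression within genotype and fitted with edgeR 4.0.16 (R 4.3.3; TMM scaling, robust quasi-likelihood fit, genotype as the only factor; age fit with genotype and age group). In all, 17437 genes were tested. DESeq2 1.42.0 was an alternative, as the study used DESeq2. The main edgeR fits were run on simulated counts with known changes, and the alternatives were not. CPM is the unrounded count over the scaled library size; 1 read was worth 0.0289 to 0.0569 CPM. Replicate numbers were not used as pairs in the main fits. All 14 sample columns were matched to samples. Named genes were all members, in each list up to 4 genes of highest mean CPM and called genes where at most 5 were called, and the 10 genes most like the family total. In all, 15 lists were read. Library totals were 20621770 to 32418475 reads. Wilson intervals are 95%; a count of 0 allows 3 reads. Sequences of the genes were not analysed here. A listed gene is not reported here.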

Additional observations from a re-analysis of the deposited data

Results flagged for a closer look

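Dixon's criterion for a single library far from the rest was applied to the family total and each member in the TMEM43-WT, TMEM43-S358L and both age groups, 32 sets in all, of which 7 were picked out; chance alone picks out about 1 in 20. All 7 lie in the age groups, which pool genotypes, and all point to 1 of the same 2 TMEM43-WT libraries. Among libraries of 5 months, TMEM43-WT replicate 1 stood apart in the family total (18.8 CPM, nearest 8.71), in vtg1 (6.94 CPM, nearest 2.53) and in vtg5 (1.46 CPM, nearest 0.267). Among libraries of 18 to 21 months, TMEM43-WT replicate 5 stood apart in the family total (47.2 CPM, nearest 18.5), vtg1 (27.6 CPM, nearest 4.12), vtg5 (4.28 CPM, nearest 0.623) and vtg7 (2.16 CPM, nearest 0.175). Within TMEM43-WT alone, neither library was picked out in any member. vtg1, vtg5 and vtg7 share split reads, so these values are not separate. vtg4 set no library apart by this criterion.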

How the results depend on the processing

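Of the 7 members, the number called in TMEM43-WT against NTG (1 by edgeR) was 0 with a filter of 1 CPM in 3 libraries, 0 with age group as a covariate, 0 with only the 2 groups compared and 2 by DESeq2. In TMEM43-S358L against NTG (1) it was 2 by DESeq2 and 0 with the replicate block. Leaving out each library gave 0 to 1 in both. In TMEM43-P111L and between the ages it was 0 under every alternative run. Of all genes, DESeq2 called 2365 in TMEM43-WT (edgeR 1454), 2115 in TMEM43-P111L (1324), 1940 in TMEM43-S358L (1073) and 563 between the ages (169). With only the 2 groups compared, 540 and 486 were called in TMEM43-P111L and TMEM43-S358L; the replicate block gave 62 and 122, the first on the same libraries as the fit of 2 groups. Leaving out each library gave 743 to 1566, 518 to 1402 and 503 to 1195 in the lines, and 1 to 324 between the ages. Without the NTG, TMEM43-WT, TMEM43-P111L or TMEM43-S358L libraries the age fit called 204, 1, 1 and 0. The cause of these shifts was not tested.

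The replicate block was fitted for TMEM43-P111L and TMEM43-S358L; TMEM43-WT shares only 1 number with NTG, so no paired analysis was possible there. Same-numbered libraries deviated with correlations of -0.113 to 0.152, and in 1 of 6 the own number correlated best. With so few libraries of mixed ages these values cannot show whether the numbers pair samples. The main fits did not use them as pairs. With the block, vtg4 (-2.08 ± 0.66) and esr1 (edgeR adjusted p = 0.0748) were not called in TMEM43-S358L.

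The mean family total in TMEM43-P111L was 6.94 CPM at 5 months alone (1 library) against 13.9 CPM over all. Other scalings kept every mean within 1 SD, as did adding the pseudogene, a choice made after seeing the data together with unrounded counts. Windows of 50 and 100 bases for shared sequence were not run. Rows under 3 reads, chiefly vtg7, are limited by depth.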

Other observations

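Genes were also ranked by likeness to vtg4 alone, a choice made after seeing the values. Over the 14 libraries the highest were il1b, an inflammatory cytokine (r = 0.93, rho = 0.89, 0.521 to 18.1 CPM), c3b.1, a complement gene (r = 0.92, rho = 0.83, 0.886 to 10.3 CPM), capn1b, a calpain protease gene (r = 0.90, rho = 0.80), and buc (r = 0.88, rho = 0.84). Without TMEM43-P111L replicates 3 and 4, the libraries farthest from the median of vtg4, r was 0.90, 0.92, 0.92 and 0.84 for these 4. For vtg1 the highest was thraa, a thyroid hormone receptor gene (r = 0.82, rho = 0.86), and none of its 10 nearest genes was among the 10 of vtg4. These are the extremes of 11193 genes over 14 points and carry no test.

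ahsg1, a liver secreted glycoprotein gene, was called higher at 18 to 21 months than at 5 months (log2 fold change 2.07 ± 0.35, edgeR adjusted p = 0.0220), with 1.29 to 2.77 CPM in the 7 older and 0.247 to 0.652 CPM in the 7 younger libraries. The groups did not overlap, as in 0.740% of tested genes, while no vitellogenin gene was called between the ages. The ahsg1 call was kept in 18 of 24 alternatives. Of single libraries left out, it was lost without TMEM43-P111L replicate 2 (1.94, edgeR adjusted p = 0.0786), TMEM43-S358L replicate 4 (2.22, 0.101) or TMEM43-WT replicate 1 (1.94, 0.0673).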
